A study of Mus musculus with 36 samples.

Results

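Bhas 42 cells exposed to the amorphous silica NM-203 at 5 µg/cm² were compared directly with Bhas 42 cells exposed to diatomaceous earth (DE) at the same mass per area. Members were chosen by sample title: the 4 NM-203 and the 4 DE samples at 5 µg/cm², 8 of the 36 samples of the series. Bhas 42 is a mouse fibroblast line made from BALB/c 3T3 cells; it carries the viral Ha-ras oncogene in every group and is used in cell transformation assays. Cells were seeded at 1460 cells/cm², received NM-203, DE or 2% water on day 4 and were collected 48 h later, on day 6. NM-203 at 1 and 2 µg/cm² and the water control, 4 samples each, are used below to place the levels. The series record gives 4 independent experiments, without tying samples to them, so p-values measure the spread between these samples only.

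Both materials are silicas. NM-203 is a synthetic pyrogenic powder of amorphous silica from a repository of reference nanomaterials, and DE is made of fossil diatom shells, which are largely amorphous silica. Fibroblasts take up silica particles into lysosomes. In Bhas 42 cultures, tumour promoters push ras-initiated cells out of contact inhibition so that they pile up into foci, and proliferins, growth-related prolactin-like secreted proteins of the mouse, are classic genes of growing fibroblasts. The equal dose is one of mass; the labels used here give no particle size, surface area or cell count, so fewer cells of a type and less RNA per cell cannot be told apart in these bulk samples.

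RNA was measured on Agilent 1-colour arrays, 1 per sample, and levels are given on the log2 scale relative to the 75th percentile of each array's processed intensity, so that 1 unit is a 2-fold difference. Over the 8 arrays, that percentile lay at an intensity of 531 to 713, 55.1% to 64.3% of probes were well above background and 0 spots were saturated. Arrays correlated across genes at r = 0.984 to 0.991 within NM-203, 0.976 to 0.986 within DE and 0.981 to 0.990 within water. NM-203 replicate 1 was on slide 5, from the second scan day, replicate 2 on slide 3 and replicates 3 and 4 on slide 1; DE replicate 1 was on slide 1, replicates 2 and 3 on slide 3 and replicate 4 on slide 2. Slides 1 and 3 therefore held both groups. Values with the slide as a block or within those slides are given for some lists and where a call on a named gene was lost. For the other lists they are not given here.

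The materials differed in the RNA of many genes. Of 32492 gene names tested, 9494 differed between NM-203 and DE at an adjusted p under 0.05 (limma, Benjamini-Hochberg), which is 29.2%. Higher in NM-203 were 4541 (14%) and lower were 4953 (15.2%); with each array centred on its median over the tested genes, called scaling on the median below, the split was 4343 higher and 2815 lower. Counts under that scaling are given below for some lists only, so how far the lower counts of the others depend on it is not shown. At least 2-fold differences numbered 2693 (8.29%), with 1130 higher (3.48%) and 1563 lower (4.81%). The 4 NM-203 and the 4 DE values did not overlap for 9229 gene names (28.4%). The median difference of all gene names was -0.02. With the slide as a block 9441 gene names were called, within slide 1 alone 3728 and within slide 3 alone 5704.

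Against the shared water controls, NM-203 at 5 µg/cm² changed 10740 gene names (33.1%), 4549 of them higher (14%) and 6191 lower (19.1%). DE changed 327 (1.01%), with 181 higher (0.557%) and 146 lower (0.449%). NM-203 changed 28 gene names at 1 µg/cm² (0.0862%; 0.0431% higher and 0.0431% lower) and 8125 at 2 µg/cm² (25%; 16.2% higher and 8.85% lower). All 4 arrays of the 2 µg/cm² dose were on slides 4 and 5, from the second scan day, and all 4 water arrays on slides 1 to 3, from the first, so dose and scan day cannot be told apart in that comparison. Levels on the water arrays are given beside those of both materials for the genes the results turn on.

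**Figure D1:**
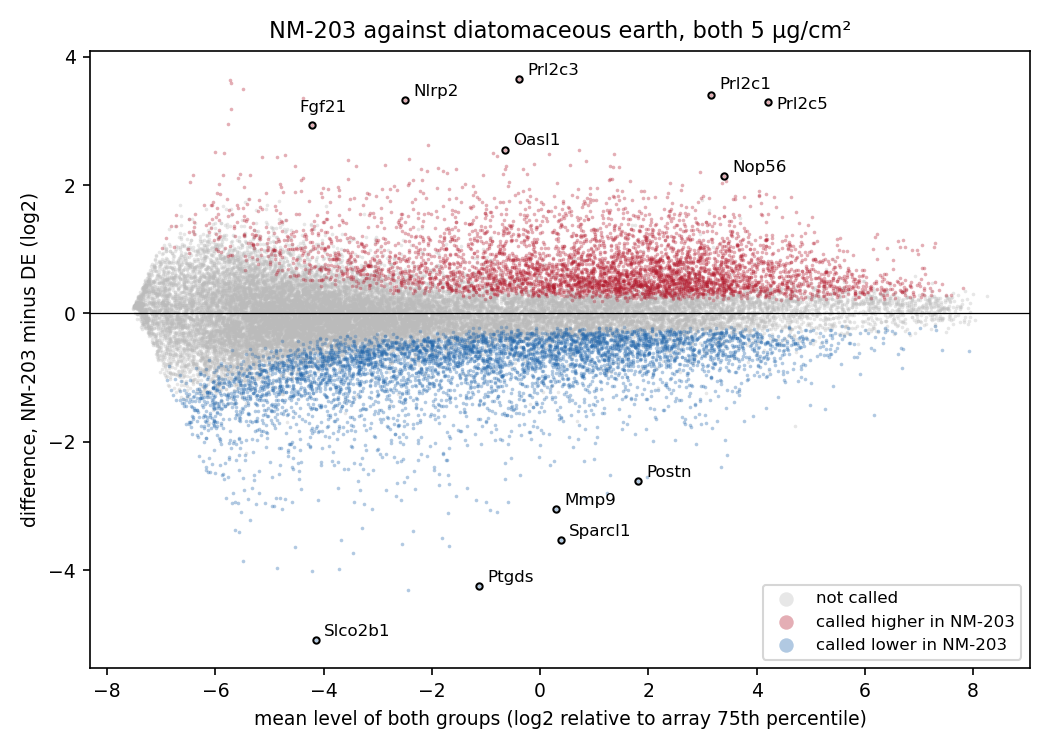
Difference NM-203 minus DE at 5 µg/cm² (log2, vertical axis) against the mean level of both groups (log2 relative to the array's 75th percentile, horizontal axis) for each of the 32492 gene names tested, red where called higher in NM-203 and blue where called lower. The proliferin genes Prl2c1, Prl2c3 and Prl2c5 are among the highest points and Slco2b1, at -5.09, at the bottom.

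The 3 proliferin genes were among the largest positive differences. Prl2c3 stood at 1.60, 1.37, 1.75 and 1.01 on the NM-203 arrays, against -2.34, -2.45, -1.99 and -2.12 on the DE arrays and -3.13, -3.57, -3.15 and -2.80 on the water arrays. All 4 NM-203 arrays lay above all DE arrays, and all DE arrays above all water arrays. The difference was 3.66 ± 0.20 (SE of the limma fit, as after every ± below unless named otherwise; 12.6-fold; adjusted p = 4.38e-14). Prl2c1 differed by 3.40 ± 0.15 and Prl2c5 by 3.29 ± 0.15 (limma adjusted p = 1.9e-15 and 2.24e-15). In DE against water the 3 genes were higher by 0.94, 0.92 and 0.91 (limma adjusted p = 0.0123, 0.00157 and 0.00182). The proliferin genes are near-identical copies, so a probe named for one may also bind RNA of another.

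Among the genes listed with the proliferins, mostly acute phase genes, some followed the proliferins and others, given further below, went the other way. Saa3, a serum amyloid A made outside the liver, had levels of 1.30, 1.50, 1.71 and 0.27 with NM-203, against -0.65, -0.74, 0.42 and -0.22 with DE and -3.33, -4.25, -3.55 and -3.78 with water. Both silicas lay far above water (by 4.92 with NM-203 and 3.43 with DE), while NM-203 replicate 4 lay below DE replicate 3. The direct difference was 1.49 ± 0.27 (2.81-fold, limma adjusted p = 6.32e-05), and it was not called within slide 1 (limma adjusted p = 0.0878) or slide 3 (limma adjusted p = 0.0634) alone. Car6, a secreted carbonic anhydrase, had 0.47, 0.40, 0.72 and 0.15 with NM-203, against -1.95, -1.74, -2.18 and -2.19 with DE and -3.34, -3.41, -3.93 and -4.34 with water. Its groups did not overlap, and it differed by 2.45 ± 0.21 (limma adjusted p = 3e-10) with DE higher than water by 1.74.

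The list of proliferin and acute phase genes had 13 measured members, of which 7 were higher and 5 lower in NM-203 than in DE, with a median difference of 0.45 beside -0.02 for all gene names. Besides the genes above, Lcn2 (lipocalin 2, an iron-siderophore binder) was higher by 1.21 and Saa1 by 0.45. The 3 orosomucoid genes, which encode acid glycoproteins of plasma, were lower, Orm1 at -1.51, Orm3 at -1.79 and Orm2 at -1.82, and may share signal as close copies. Saa2 (-1.12; well above background on 1 NM-203 and 3 DE arrays) and Cp (-0.78), the copper carrier ceruloplasmin, were lower as well. These 7 were named after their values were seen. Against water, Orm2 stood at -1.71 with NM-203 and 0.11 with DE, whereas Cp stood at -0.02 with NM-203 and 0.75 with DE. Within slide 1, 4 members were called higher.

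Cytokine and chemokine genes divided. Il6, the inflammatory cytokine, had levels of -2.17, -2.28, -1.90 and -2.61 with NM-203, against -4.39, -3.64, -3.97 and -4.41 with DE and -4.34, -4.12, -4.08 and -4.41 with water. The DE and water arrays overlapped and the NM-203 arrays lay above both, with a direct difference of 1.86 ± 0.24 (limma adjusted p = 2.3e-07). Of the 14 measured IL-6 family and signalling genes, 4 were higher and 6 lower (median -0.22); with scaling on the median 4 were higher and 0 lower. Lifr, the LIF receptor, had the widest difference on the lower side, at -0.67, which was not called within slide 1 or with scaling on the median (limma adjusted p = 0.0522), and another of its 3 tested probes stood at 0.06. Il1rl1, which encodes the IL-33 receptor, was higher by 1.82. The cytokine Lif was not tested, since in none of the 9 groups did a probe of it reach 3 arrays well above background. Its signal was well above background on 2 NM-203 arrays and 0 DE arrays.

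Of 17 chemokine genes, 5 were higher and 4 lower in NM-203 (median 0.07), and 5 higher and 2 lower with scaling on the median. Cxcl10, an interferon-inducible attractant of T cells, had 4.58, 4.53, 4.72 and 4.15 with NM-203, against 2.72, 2.33, 2.73 and 3.05 with DE and 2.24, 2.32, 1.20 and 1.27 with water. The NM-203 arrays lay above every DE array, by 1.79 ± 0.28 on average (limma adjusted p = 5.75e-06). Ccl7 was higher by 0.98 and Ccl20 by 1.01 (not called within slide 1 or 3), while Cx3cl1, the membrane-bound fractalkine, was lower at -1.24. Ccl8, named after its values were seen, differed by 0.07 between the materials and stood above water by 1.44 with NM-203 and 1.37 with DE. NF-kB subunits and targets had 2 higher and 5 lower among 21 (median -0.01), which is 33.3% called beside 29.2% of all gene names. With scaling on the median 2 were higher and 3 lower. Birc3, an inhibitor of apoptosis, was lower at -0.62, though not called within slide 1.

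The prostaglandin genes held some of the widest differences in both directions. Ptgs2, the inducible cyclooxygenase, had levels of -0.73, -0.03, -0.03 and -0.95 with NM-203, against -2.65, -2.34, -2.87 and -2.84 with DE and -3.20, -3.36, -3.31 and -2.94 with water. It was higher by 2.24 ± 0.22 (4.73-fold, limma adjusted p = 3.32e-09). Ptgds, which makes prostaglandin D, had -3.35, -2.97, -3.71 and -2.98 with NM-203, against 0.75, 0.80, 1.39 and 1.03 with DE and 1.17, 1.32, 0.82 and 0.85 with water. The difference was -4.25 ± 0.25, a 19.0-fold difference (limma adjusted p = 3.75e-13), with every NM-203 array far below every DE and water array. Ptgir, the prostacyclin receptor, was near background on all 4 NM-203 arrays and was at least 3.61-fold lower there. Of the 15 measured genes 2 were higher and 6 lower.

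Inflammasome genes had 5 higher and 4 lower members among 18 (median -0.02). Nlrp2, a NOD-like receptor, had levels of -0.83, -0.84, -0.42 and -1.24 with NM-203, against -4.08, -4.44, -4.30 and -3.79 with DE and -4.21, -4.78, -4.22 and -4.17 with water. The difference was 3.32 ± 0.25 (10.0-fold, limma adjusted p = 1.84e-11). Il1rn, the antagonist of the interleukin-1 receptor, was at least 2.07-fold higher in NM-203 (limma adjusted p = 1.33e-06), since all DE arrays had it near background. Such bounds set the bright group's mean against the lowest signal well above background on each array of the dim group, or the probe's own signal where that was higher. With no filter on dim probes, another probe stood for Il1rn, with a difference of 1.42 (limma adjusted p = 0.0893). Il1r1, the receptor itself, was lower at -1.03 and the cytokine Il18 at -1.23.

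**Figure D2:**
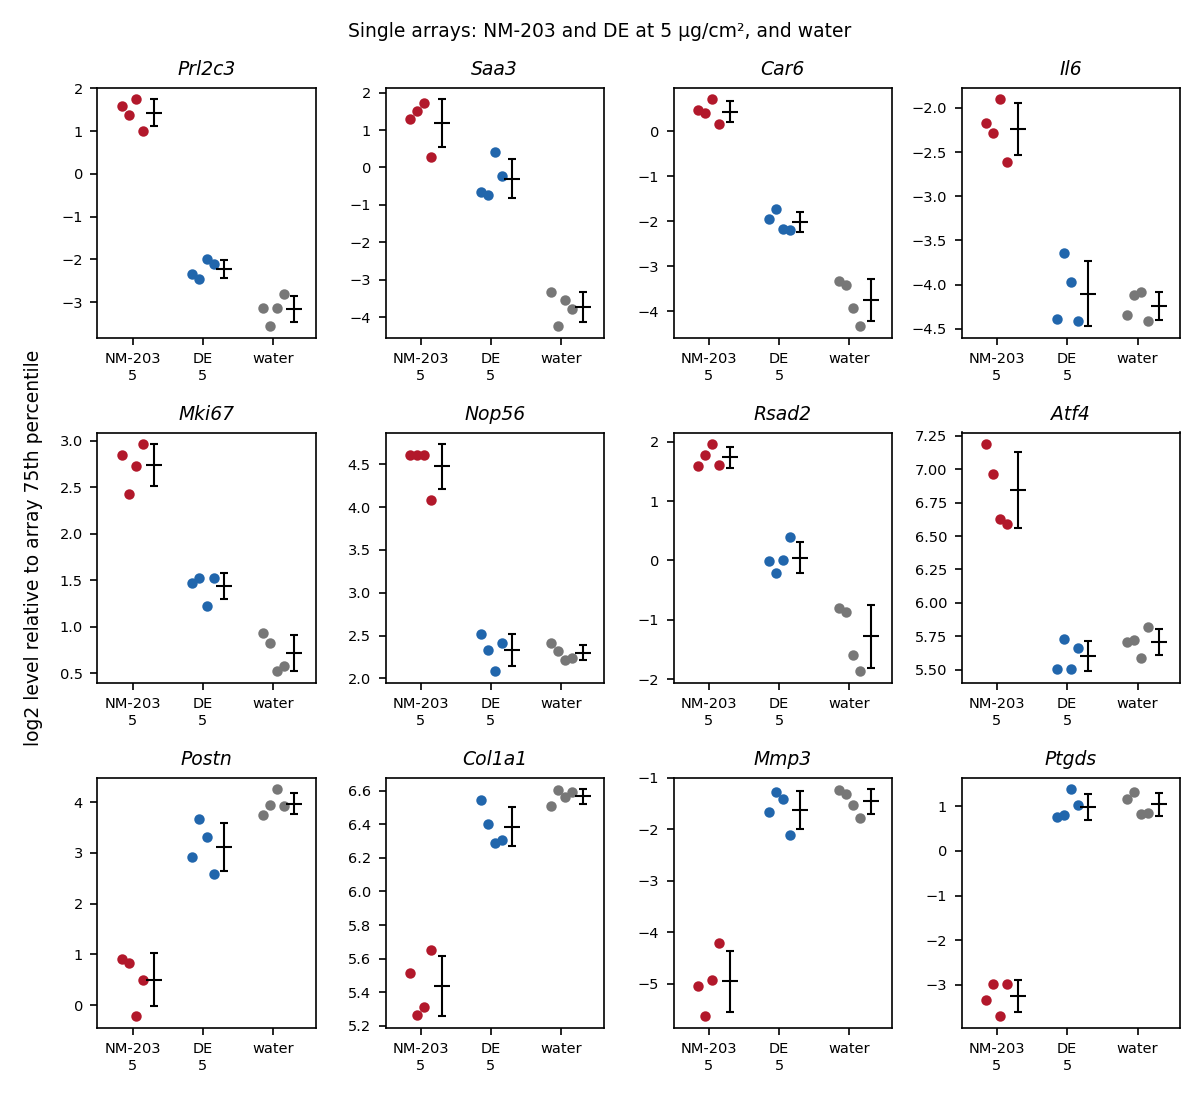
Levels of 12 genes on single arrays (points) in NM-203 at 5 µg/cm² (red), DE at 5 µg/cm² (blue) and water (grey), as log2 relative to the array's 75th percentile; bars give the mean and SD over 4 arrays, and each panel has its own vertical axis. The red and blue points overlap only for Saa3.

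Genes of cell division were higher in NM-203 across nearly the whole lists. Of 46 genes of G2 and mitosis, 44 were called higher and 0 lower, with a median difference of 1.27. The median level over these genes was 2.44, 2.26, 2.65 and 2.35 on the NM-203 arrays, against 1.21, 0.82, 0.69 and 0.92 on the DE arrays and 0.52, 0.30, -0.10 and 0.15 on the water arrays. The 3 groups did not overlap. The other 2 genes, Aurka (1.23, limma adjusted p = 0.088) and Kif18b (1.19, limma adjusted p = 0.154), pointed the same way without passing the test. DE itself had 20 of the 46 called higher than water and 0 lower. With the slide as a block the median difference was 1.36, within slide 1 it was 1.17 with 32 genes called and within slide 3 it was 1.23, also with 32 called.

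Mki67, which encodes the proliferation antigen Ki-67, had levels of 2.84, 2.43, 2.72 and 2.96 with NM-203, against 1.47, 1.53, 1.22 and 1.52 with DE and 0.93, 0.82, 0.52 and 0.58 with water. It differed by 1.30 ± 0.19 (2.47-fold, limma adjusted p = 1.96e-06) with no overlap of the groups. Ccnb1, the mitotic cyclin B, differed by 1.31 ± 0.19. The widest differences of the list were those of Mybl2, a transcription factor of the cell cycle, at 2.49, Sgo1, which protects centromeric cohesin, at 1.91, Foxm1, a transcription factor of mitotic genes, at 1.81, and Ect2, an exchange factor for cytokinesis, at 1.76. Ect2 had levels of 1.88, 1.86, 2.17 and 1.75 with NM-203, against 0.54, 0.15, -0.38 and 0.31 with DE and -0.10, -0.23, -0.77 and -0.37 with water.

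Many promoters of such genes carry the CHR element, with the letters TTTGAA, which is bound by the MuvB complexes that hold B-Myb, the product of Mybl2. It was searched on both strands from 250 bases before to 50 after each start site, in windows from RefSeq (GRCm38.p6). It was present in 30 of the 40 mitosis genes that had such a window, beside 20.2% of all 27025 genes. The window of Ect2 is shown as the called gene of this list with a match that differed most, at chr3:27153829-27154128 on the minus strand, with its 2 matches in capitals, the first beginning at -114 from the start site. A match of letters does not show binding.
Ect2: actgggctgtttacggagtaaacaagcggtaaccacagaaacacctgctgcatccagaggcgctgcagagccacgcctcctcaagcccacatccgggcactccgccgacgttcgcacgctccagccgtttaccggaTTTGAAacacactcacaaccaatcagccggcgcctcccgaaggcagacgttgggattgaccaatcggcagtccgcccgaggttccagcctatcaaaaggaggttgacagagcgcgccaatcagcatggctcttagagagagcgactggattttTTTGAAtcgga

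Genes of DNA replication were higher in NM-203 too, and DE lay close to water for them. Of 46 such genes 43 were higher and 0 lower, with a median difference of 1.58. The median level over the list was 2.41, 2.45, 2.77 and 2.45 with NM-203, against 1.13, 0.72, 0.78 and 0.81 with DE and 0.86, 0.82, 0.59 and 0.67 with water. The DE and water arrays overlapped, and 0 of the 46 were called between DE and water. Mcm10, a loading factor of the replication fork, had 2.24, 1.97, 2.20 and 1.74 with NM-203, against -0.16, -0.53, -0.43 and -0.25 with DE and -0.68, -0.81, -1.19 and -0.95 with water, a direct difference of 2.38 ± 0.17 (5.21-fold, limma adjusted p = 5.5e-12). Exo1, an exonuclease of mismatch repair, differed by 2.55 and Dtl, which targets Cdt1 for destruction, by 2.49. Ccne2, cyclin E2, was at least 1.68-fold higher, as no DE array showed it well above background, and was not called within slide 1.

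The 3 replication genes that did not pass were Tyms (1.61, limma adjusted p = 0.0693), Pold1 (1.37, limma adjusted p = 0.0932) and Gins3 (-0.03, limma adjusted p = 0.93). The list's median was 1.61 with the slide as a block, 1.39 within slide 1 and 1.68 within slide 3. The brakes of the cycle were mixed. Of 26 CDK inhibitors and p53 targets, 6 were higher and 10 lower (median -0.06); with scaling on the median 6 were higher and 4 lower (median 0.06). Gadd45a, a stress-induced gene of growth arrest, was higher by 1.45 and Sesn1, a p53-induced sestrin, was lower at -1.36. Cdkn1a, which encodes the CDK inhibitor p21, had 3.05, 3.12, 2.87 and 3.09 with NM-203, against 3.49, 3.19, 4.13 and 3.57 with DE, and was lower at -0.56 ± 0.17 (limma adjusted p = 0.0131). The call on Cdkn1a was lost without DE replicate 3, its highest array, within either slide and with scaling on the median.

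Ribosome biogenesis genes set the materials apart. All 25 measured genes of the list were called higher in NM-203, with no overlap of the arrays for any of them and a median of 1.31, whereas 0 of 25 were called between DE and water. The median level was 3.15, 3.17, 3.12 and 2.55 with NM-203, against 1.58, 1.79, 1.55 and 1.61 with DE and 1.59, 1.62, 1.44 and 1.72 with water. NM-203 replicate 4 was the lowest of its group and still above every DE array. Nop56, a core protein of box C/D small nucleolar ribonucleoproteins, had 4.61, 4.61, 4.61 and 4.08 with NM-203, against 2.52, 2.33, 2.08 and 2.41 with DE and 2.41, 2.32, 2.22 and 2.24 with water. It differed by 2.14 ± 0.15 (4.41-fold, limma adjusted p = 8.78e-12). Rrp12 differed by 1.91, Heatr1, a factor of polymerase I transcription, by 1.82 and Dkc1, the pseudouridine synthase dyskerin, by 1.63.

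The median of the ribosome list was 1.30 with the slide as a block, 1.30 within slide 1 and 1.38 within slide 3, with 23 genes called in each slide. Myc, a known activator of such genes, had levels of 2.33, 2.78, 2.83 and 2.00 with NM-203, against 0.02, 0.47, 0.14 and 0.22 with DE and -0.09, -0.03, -0.09 and 0.11 with water, a difference of 2.27 ± 0.21 (4.84-fold, limma adjusted p = 1e-09). The E-box CACGTG, the core letters that Myc binds, was in the promoter window of 5 of 20 ribosome genes, beside 8.09% of all genes.

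Of the immediate early genes, Fosl1 and Myc had the widest differences, and 34.8% were called, beside 29.2% of all gene names. The AP-1 and immediate early list had 7 higher and 1 lower among 23 (median 0.18), with 2 called higher within slide 1 and 3 within slide 3. Fosl1, which encodes the AP-1 subunit Fra-1, had 0.42, 0.25, 0.76 and 0.10 with NM-203, against -2.27, -1.98, -1.76 and -2.45 with DE and -2.02, -1.94, -1.99 and -1.88 with water. DE and water overlapped, and NM-203 was higher than DE by 2.49 ± 0.24 (5.63-fold, limma adjusted p = 1.85e-09). Of 23 genes of ERK output and feedback, 8 were higher, 2 lower and 13 not called (median 0.18). That is 43.5% called, beside 29.2% of all gene names. Dusp4, a nuclear phosphatase of ERK, was higher by 1.98, the EGF receptor ligand Hbegf by 1.62 and the ETS factor Etv4 by 1.60.

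Interferon-stimulated genes were higher with both silicas than with water, and higher with NM-203 than with DE. Of 37 measured, 23 were higher and 0 lower in the direct comparison (median 0.53), and DE had 14 of 37 called higher than water. The median level was 4.02, 3.92, 3.84 and 3.73 with NM-203, against 3.35, 3.41, 3.54 and 3.76 with DE and 3.11, 3.26, 2.64 and 2.81 with water. DE replicate 4 thus lay just above NM-203 replicate 4, and the DE arrays lay above all water arrays. The list's median was 0.50 with the slide as a block, 0.55 within slide 1 with 18 called and 0.52 within slide 3 with 15 called.

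Rsad2, the antiviral enzyme viperin, had levels of 1.59, 1.78, 1.96 and 1.60 with NM-203, against -0.01, -0.22, 0.01 and 0.40 with DE and -0.80, -0.87, -1.59 and -1.87 with water. The groups formed 3 separate bands, NM-203 higher than DE by 1.69 ± 0.20 (3.22-fold, limma adjusted p = 1.09e-07) and DE higher than water by 1.33. Oasl1, an oligoadenylate synthetase-like protein, differed most, by 2.55 ± 0.27, then Herc6 by 1.74 and Zbp1, a sensor of Z-form nucleic acids, by 1.44. Isg15, the ubiquitin-like modifier, differed by 0.72 ± 0.15 (limma adjusted p = 0.000281), which was not called within slide 1. Oasl2, named after its values were seen, stood at 4.84 with NM-203, 4.65 with DE and 3.97 with water, and the direct difference of 0.19 did not pass.

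Interferon-induced transcription runs through the ISRE, whose core was searched on both strands of the same windows as GAAA, any 2 bases and GAAA again. They were found in 16 of 28 interferon-stimulated genes with a window, beside 3.99% of all genes. Of genes called higher in NM-203 than in DE, 11 of 19 held it, and of the others 5 of 9. Rsad2 is shown, at chr12:26456403-26456702 on the minus strand (RefSeq, GRCm38.p6), with the match on the opposite strand in capitals and beginning at -120 from the start site.
Rsad2: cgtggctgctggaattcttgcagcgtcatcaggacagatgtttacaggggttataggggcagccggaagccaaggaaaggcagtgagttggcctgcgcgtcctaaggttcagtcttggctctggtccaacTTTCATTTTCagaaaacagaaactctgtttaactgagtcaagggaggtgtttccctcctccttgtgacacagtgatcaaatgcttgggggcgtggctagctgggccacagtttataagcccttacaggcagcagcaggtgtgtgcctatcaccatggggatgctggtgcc
Genes of MHC class I and antigen processing, which interferons also induce, had 3 higher and 1 lower among 17 (median -0.06). That is 23.5% called, beside 29.2% of all gene names. With normexp and quantile normalization 2 were higher and 4 lower. The proteasome subunit Psmb10 was the most different at 0.91.

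**Figure D3:**
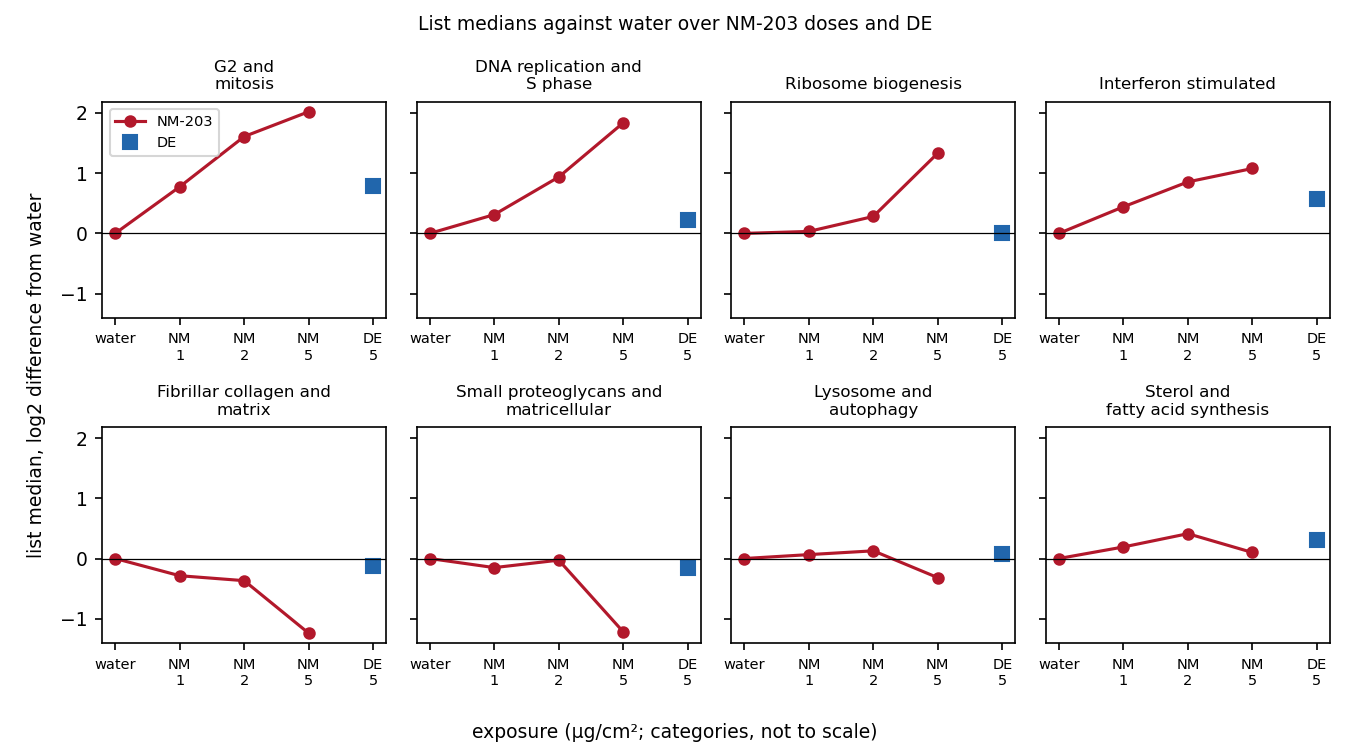
Median difference from water (log2, vertical axis, same scale in all panels) over the genes of 8 lists, for NM-203 at 1, 2 and 5 µg/cm² (red, joined; water is 0; the 2 µg/cm² arrays were all from another scan day than water) and DE at 5 µg/cm² (blue square). Doses are drawn as categories; at 5 µg/cm² the DE square lies below NM-203 for the 4 upper lists and above it for the matrix, lysosome and sterol lists.

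Over the NM-203 doses of 1, 2 and 5 µg/cm², the median difference of the mitosis list from water was 0.77, 1.61 and 2.02, and with DE at 5 µg/cm² it was 0.79. For replication it was 0.31, 0.94 and 1.84, with DE at 0.23, and for interferon-stimulated genes 0.44, 0.85 and 1.08, with DE at 0.58. The ribosome list stood at 0.03, 0.28 and 1.33, with DE at -0.00. For collagen genes it was -0.29, -0.37 and -1.24, with DE at -0.13, and for the proteoglycan list -0.15, -0.03 and -1.22, with DE at -0.15. The median over all gene names was -0.02, 0.11 and 0.01 at the 3 NM-203 doses and -0.02 with DE. The values at 2 µg/cm² cannot be told apart from the scan day. All these values share the water arrays and, where the doses differ, make no comparison between the materials.

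Genes of stress response and one-carbon supply were more often higher than lower in NM-203. Of the genes of the unfolded protein response and integrated stress response, 16 of 31 were higher and 2 lower (median 0.40), and in the serine and one-carbon list 15 of 24 were higher and 3 lower (median 0.46). Atf4, the transcription factor at the centre of the integrated stress response, had levels of 7.19, 6.97, 6.63 and 6.59 with NM-203, against 5.51, 5.73, 5.51 and 5.66 with DE and 5.71, 5.72, 5.59 and 5.82 with water. DE and water overlapped, and the direct difference was 1.24 ± 0.16 (2.37-fold, limma adjusted p = 1.93e-07). Trib3, a pseudokinase induced by ATF4, was higher by 1.81, Asns, asparagine synthetase, by 1.37 and Chac1, which degrades glutathione, by 1.36. Ddit3, which encodes CHOP, differed by 0.50 ± 0.13 (limma adjusted p = 0.0045), and this was not called within slide 3.

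Psat1, an enzyme of serine synthesis, had 5.08, 4.92, 5.06 and 4.83 with NM-203, against 3.38, 3.13, 2.84 and 3.18 with DE and 3.19, 2.94, 2.86 and 2.94 with water. It differed by 1.84 ± 0.13 (3.58-fold, limma adjusted p = 1.31e-11). The mitochondrial one-carbon enzymes Shmt2 and Mthfd2 differed by 1.74 and 1.71, while Aldh1l1, which oxidises formyl-tetrahydrofolate in the cytosol, was lower at -1.88. Fgf21, a hormone-like growth factor and known ATF4 target, had -2.65, -2.77, -2.57 and -2.98 with NM-203, against -5.08, -5.15, -7.32 and -5.18 with DE, where 2 of the 4 arrays were well above background. It was higher by 2.94 ± 0.40 (limma adjusted p = 8.45e-07).

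The composite element of ATF4, searched as TGATGCAA on both strands, was in the promoter window of 4 of 28 stress response genes, 3 of them among the 13 called higher that had a window, and in 1 of 18 serine and one-carbon genes, 0 of them among the 12 called higher that had a window, beside 1.03% of all genes. Chac1 is shown, at chr2:119350992-119351291 on the plus strand (RefSeq, GRCm38.p6), with the match on the opposite strand in capitals and beginning at -193 from the start site.
Chac1: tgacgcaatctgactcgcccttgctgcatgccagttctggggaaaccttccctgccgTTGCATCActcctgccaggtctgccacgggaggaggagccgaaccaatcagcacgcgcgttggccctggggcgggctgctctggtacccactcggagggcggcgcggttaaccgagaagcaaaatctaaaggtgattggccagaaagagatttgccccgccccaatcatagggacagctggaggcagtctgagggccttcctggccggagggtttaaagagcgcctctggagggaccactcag

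Among 34 NRF2-regulated and redox genes 18 were higher and 4 lower (median 0.36), with 7 called higher within slide 1 and 11 within slide 3. Gclc, the catalytic subunit of the rate-limiting enzyme of glutathione synthesis, had 1.11, 0.95, 1.22 and 0.82 with NM-203, against -0.55, -0.52, -0.46 and -0.44 with DE and -0.39, -0.52, -0.53 and -0.35 with water. It differed by 1.52 ± 0.10 (2.87-fold, limma adjusted p = 3.39e-12). The cystine carrier Slc7a11 differed by 2.07 ± 0.33 and thioredoxin reductase, Txnrd1, by 1.05 ± 0.13. Hmox1, the inducible haem oxygenase, had 4.57, 4.65, 4.00 and 4.04 with NM-203, against 3.86, 4.09, 3.95 and 4.04 with DE; the groups overlapped and the difference of 0.33 had a 95% interval of -0.00 to 0.66 (limma adjusted p = 0.14). Aox1, an aldehyde oxidase, was lower at -1.75.

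Heat shock chaperones had 11 higher and 1 lower among 19 (median 0.44), with Hsph1 higher by 1.28, Hsp90aa1 by 1.06 and the mitochondrial Hspa9 by 1.02. Hspa1a, an inducible HSP70, was near background on all 8 arrays, whereas Hspa1b of the same list was well above background on all of them. Among 9 metallothionein and zinc genes (33.3% called, beside 29.2% of all gene names) 2 were higher and 1 lower. That one was Mt1, with 6.42 on average in NM-203 and 6.98 in DE (-0.55 ± 0.14, limma adjusted p = 0.0031), a call that was lost within either slide and with scaling on the median. Glycolysis and hypoxia genes had 10 higher and 5 lower among 27 (median 0.10), with the glycolytic enzymes Pgam1 and Pgk1 each higher by 0.83; Pgk1 was not called within slide 1. With scaling on the median 8 of the list were higher and 1 lower, and within slide 1 the counts were 2 and 1.

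**Figure D4:**
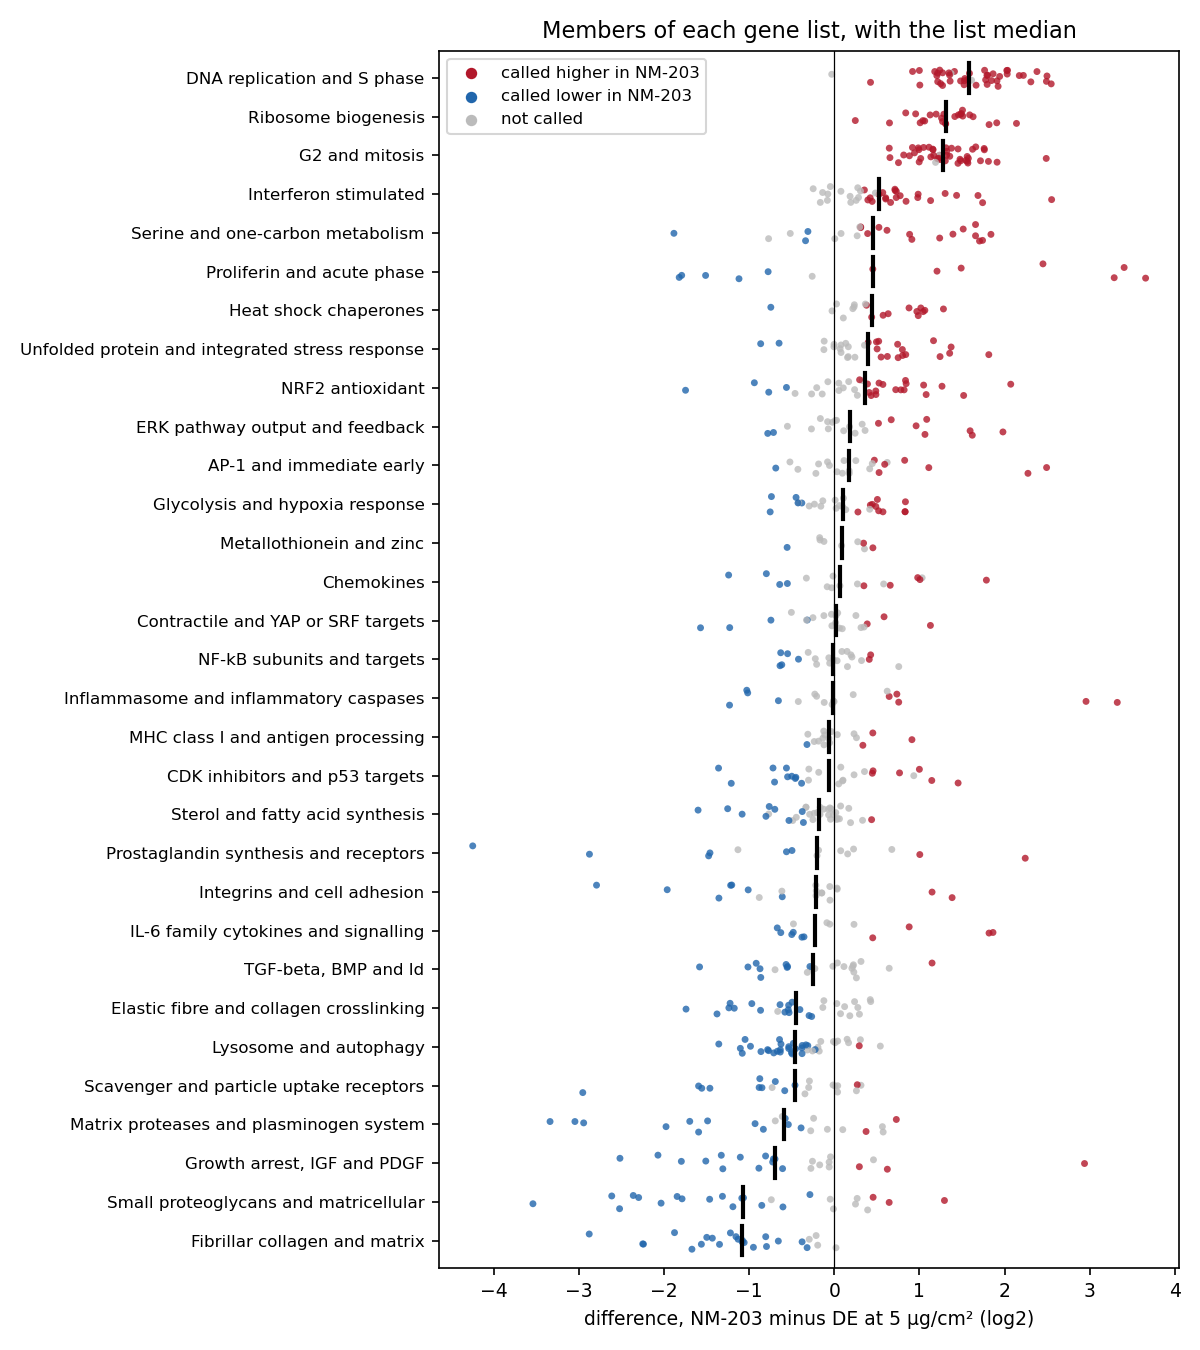
Difference NM-203 minus DE at 5 µg/cm² (log2, horizontal axis) for every measured member of 31 gene lists (points; red called higher in NM-203, blue called lower, grey not called), with the list's median as a black bar, ordered by that median. Replication, ribosome and mitosis genes lie almost wholly to the right and collagen and proteoglycan genes mostly to the left.

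Genes of the extracellular matrix were lower in NM-203. Of 25 fibrillar collagen and matrix genes 21 were lower and 0 higher, with a median of -1.08. The median level over the list was 1.92, 1.63, 1.75 and 2.25 with NM-203, against 2.95, 3.40, 3.11 and 2.73 with DE and 2.97, 3.19, 3.46 and 3.06 with water. DE and water overlapped, 1 member was called lower in DE than in water, and every NM-203 array lay below both. Col1a1, the main chain of type I collagen, had 5.51, 5.26, 5.31 and 5.65 with NM-203, against 6.54, 6.40, 6.29 and 6.31 with DE and 6.51, 6.60, 6.56 and 6.59 with water. The difference was -0.95 ± 0.09, which is 1.93-fold (limma adjusted p = 6.53e-10). The other tested probe of Col1a1 stood at -0.41. Col5a3 was lower at -2.25, with its other tested probe at -0.99, and the laminin chain Lama4 at -2.24. Lama2 had probes that disagreed, the brighter at -1.88 and the other at 0.67, which was not called. Nid2, nidogen 2, was at least 1.79-fold lower. The list's median was -1.10 with the slide as a block, -1.18 within slide 1 and -1.21 within slide 3.

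Small proteoglycans and matricellular proteins had 16 lower and 3 higher among 25 (median -1.07). Postn, periostin, had levels of 0.91, 0.84, -0.22 and 0.49 with NM-203, against 2.91, 3.66, 3.31 and 2.59 with DE and 3.75, 3.95, 4.26 and 3.93 with water. The 3 groups did not overlap, and the difference was -2.61 ± 0.23 (6.12-fold, limma adjusted p = 4.43e-10). Sparcl1, a SPARC-like matricellular protein, had -1.06, -1.33, -2.02 and -1.12 with NM-203, against 1.98, 2.51, 1.94 and 2.18 with DE and 2.97, 3.37, 3.08 and 3.15 with water. It was lower at -3.54 ± 0.18 (11.6-fold, limma adjusted p = 1.08e-14), and DE stood at -0.99 against water. The small leucine-rich proteoglycans Lum and Aspn were lower at -2.52 and -2.36. The 3 genes on the higher side, named after their values were seen, were of the CCN family: Ccn1 at 1.29, Ccn5 at 0.64 and Ccn4 at 0.46.

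The proteases that cut this matrix were lower as well. Of 22 matrix protease and plasminogen genes 12 were lower and 2 higher (median -0.59), and 0 were called between DE and water. Mmp3, stromelysin 1, had -5.05, -5.64, -4.93 and -4.21 with NM-203, where 2 of 4 arrays were well above background, against -1.67, -1.28, -1.42 and -2.12 with DE and -1.23, -1.31, -1.53 and -1.78 with water. The difference was -3.34 ± 0.23 (10.1-fold, limma adjusted p = 5.64e-12). Mmp9, gelatinase B, had -1.54, -1.39, -1.38 and -0.57 with NM-203, against 1.82, 1.82, 2.11 and 1.55 with DE and 1.95, 2.16, 1.82 and 1.69 with water, lower at -3.05 ± 0.19. Mmp2 was lower at -1.98 and the inhibitor Timp4 at -2.94. The higher genes were Plaur, the urokinase receptor, at 0.73 and Timp1 at 0.37, both named after their values were seen.

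For elastic fibre and collagen crosslinking genes 16 of 28 were lower and 0 higher (median -0.45); with scaling on the median the lower count was 8, and within slide 1 it was 7 and within slide 3 it was 10, where 2 were called higher. Ltbp2, a latent TGF-beta binding protein of microfibrils, was lower at -1.74 and the lysyl oxidase Loxl1 at -1.22. TGF-beta, BMP and Id genes had 9 lower and 1 higher among 24 (median -0.25), which is 41.7% called beside 29.2% of all gene names. With scaling on the median 5 were lower and 2 higher (median -0.12). Tgfbi was lower at -1.58 and Tgfb2 at -1.01, and Skil, a repressor of SMAD signalling, was higher by 1.15. Contractile and YAP or SRF targets had 3 higher and 4 lower among 21 (median 0.02). That is 33.3% called, beside 29.2% of all gene names. With scaling on the median 4 were higher and 2 lower. Members ran from Mylk, myosin light chain kinase, at -1.57 to Ankrd1, a YAP target, at 1.13. Integrin and adhesion genes had 2 higher and 7 lower among 20 (45% called, beside 29.2% of all gene names), among them Itgb7 at 1.38 and the collagen receptor chain Itga11 at -1.96.

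Growth arrest, IGF and PDGF genes had 13 lower and 3 higher among 23 (median -0.70). Igf2r, which takes IGF2 and mannose 6-phosphate enzymes to lysosomes, had 0.01, -0.34, -0.25 and 0.70 with NM-203, against 2.47, 3.00, 2.48 and 2.25 with DE and 2.95, 2.90, 2.77 and 2.65 with water. The difference was -2.52 ± 0.17 (5.72-fold, limma adjusted p = 2.5e-12). Igf2 was lower at -1.80, Pdgfrb, the PDGF receptor of mesenchymal cells, at -1.33 and Gas6, a ligand of the TAM receptors, at -2.07. Mertk, a TAM receptor for the uptake of dead cells, was at least 3.04-fold lower.

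Lysosome genes, which bear on the handling of particles, were moderately lower in NM-203 than in DE. Of 39 lysosome and autophagy genes 26 were lower and 1 higher (median -0.46), and with scaling on the median, under which the median of all gene names is 0.10, 10 were lower and 0 higher. The median level was 3.58, 3.66, 3.17 and 3.19 with NM-203, against 3.61, 3.84, 3.64 and 3.90 with DE and 3.80, 3.82, 3.46 and 3.79 with water. NM-203 replicate 2 lay above DE replicates 1 and 3, so the groups overlapped. Neu1, the lysosomal sialidase, had 2.87, 2.98, 2.42 and 2.91 with NM-203, against 3.89, 3.85, 3.88 and 3.98 with DE and 3.88, 4.00, 3.51 and 3.79 with water, lower at -1.10 ± 0.13 (2.15-fold, limma adjusted p = 1.15e-07). Gm2a, the activator of ganglioside breakdown, was lower at -1.05. Called lower were 4 members within slide 1 and 8 within slide 3, with medians of -0.40 and -0.45.

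Some lysosome genes were higher in DE than in water. Gpnmb, a membrane glycoprotein of stressed lysosomes, had -2.67, -2.53, -2.82 and -2.38 with NM-203, against -1.92, -1.43, -1.05 and -1.67 with DE and -2.53, -2.35, -2.56 and -2.68 with water. NM-203 overlapped water while every DE array lay above both; the direct difference was -1.08 ± 0.20 (limma adjusted p = 7.07e-05), not called within slide 1, and DE was above water by 1.01 (limma adjusted p = 0.00782). Ctss, cathepsin S, named after its values were seen, was above water by 0.77 with NM-203 and 1.08 with DE, and its direct difference of -0.32 did not pass. Scavenger and particle uptake receptors had 10 lower and 1 higher among 21 (median -0.46), with the endocytic receptors Lrp1 and Mrc2 lower at -1.59 and -1.56; Lrp1 was not called within slide 1. The class A scavenger receptor Msr1 stayed near background on all 8 arrays. Within slide 1, 4 of these receptors were called lower.

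Sterol and fatty acid genes had 9 lower and 1 higher among 36 (median -0.18), which is 27.8% called beside 29.2% of all gene names. Tm7sf2, a sterol reductase, was lower at -1.60 and the cholesterol exporter Abca1 at -1.25 and the SREBP regulator Insig1 at -1.08; the last 2 were not called within slide 1. With scaling on the median, 5 genes were called lower.

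Slco2b1, an organic anion carrier, had the largest negative difference. It had levels of -6.91, -6.40, -6.80 and -6.65 with NM-203, none well above background, against -1.66, -1.32, -1.62 and -1.81 with DE and -1.19, -0.98, -0.92 and -1.06 with water; it was at least 12.2-fold lower (limma adjusted p = 1.08e-14). The organic cation carrier Slc22a2 differed by -4.02, the carboxylesterase Ces1d by -3.73, the aminopeptidase Anpep by -3.64, the calcium-binding S100b by -3.62, the ETS factor Spib by -3.59 and the calcium-binding Cib3 by -3.54. Selenbp1 was at least 5.03-fold and Apobec2 at least 3.14-fold lower. On the higher side the lipid carrier Mfsd2a was at least 6.12-fold higher, Atp13a4 at least 2.68-fold and Snora23, a small nucleolar RNA, at least 2.31-fold, and Fhl1, a LIM-domain protein, differed by 2.63.

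Genes called in opposite directions against water by the materials were sought among the 6637 with a symbol that were called in the direct comparison. Gene names without a symbol were not eligible. DE had only 327 calls against water (1.01% of all gene names, beside 33.1% with NM-203), which limits how many can be found. The rule left 4: Etv5, Ass1, Robo3 and Ncf4. Etv5, an ETS factor of ERK signalling, had 0.63, 0.81, 0.65 and 0.34 with NM-203, against -0.51, -0.20, -0.69 and -0.50 with DE and 0.01, -0.06, 0.14 and 0.17 with water. NM-203 stood at 0.54 against water and DE at -0.54, and the direct difference was 1.09 ± 0.12 (limma adjusted p = 3.98e-08). Ncf4, a subunit of the phagocyte NADPH oxidase, had -2.60, -2.66, -2.82 and -2.82 with NM-203, against -0.80, -0.69, -0.60 and -0.41 with DE and -1.19, -0.84, -1.59 and -1.25 with water. It was lower at -2.10 ± 0.15, with NM-203 at -1.51 and DE at 0.59 against water (limma adjusted p = 0.0391). Ass1, argininosuccinate synthase, differed by -0.89 and the axon guidance receptor Robo3 by -1.14, and DE lay above water by 0.47 and 0.45 (limma adjusted p = 0.0341 and 0.0413).

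**Figure D5:**
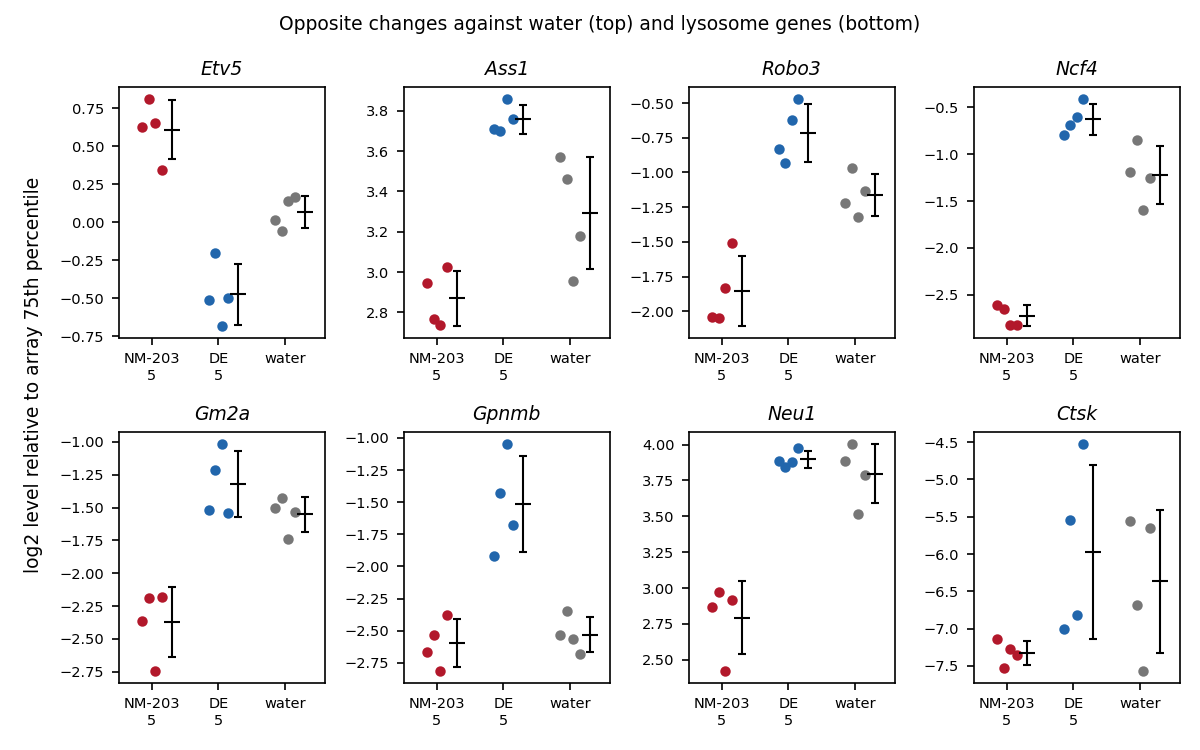
Levels on single arrays (points) of the 4 genes called in opposite directions against water (top) and of 4 lysosome genes (bottom), as log2 relative to the array's 75th percentile, in NM-203 at 5 µg/cm² (red), DE at 5 µg/cm² (blue) and water (grey); bars give the mean and SD over 4 arrays. Etv5 is highest in NM-203 and lowest in DE, Gpnmb stands above water in DE only, and Ctsk, near the floor of detection, overlaps between DE and water.

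Markers of cell types were checked, since the label gives a fibroblast line. All 13 fibroblast markers were measured, and 9 were lower and 0 higher in NM-203 (median -0.76); their summed level ran from 9.32 to 9.73 with NM-203, 9.98 to 10.1 with DE and 10.0 to 10.2 with water. Of 12 macrophage markers 7 were measured, with 3 lower and a summed level of 4.00 to 4.42 with NM-203, against 4.40 to 4.88 with DE and 4.31 to 4.83 with water. Ptprc, Adgre1, Fcgr1, Mrc1 and Tyrobp were not well above background on any NM-203 or DE array. Cd68, Csf1r, Aif1, Lyz2, Itgam and Cd14 were well above background on all 4 arrays of each group. Of 8 endothelial markers 6 were measured and 4 were lower (median -1.48; summed level -1.93 to -1.39 with NM-203, against -0.60 to -0.13 with DE and -0.13 to 0.07 with water), with Kdr, Tek and Tie1 not well above background. The endothelial markers Pecam1, Vwf and Egfl7 were well above background on all 4 arrays of each group. Of 10 epithelial markers 6 were measured and 1 was lower. Epcam, Krt18, Krt19 and Cldn3 were not well above background on any NM-203 or DE array. Krt5, Krt8, Krt14 and Cldn7 were well above background on all 4 arrays of each group. Of 8 adipocyte markers 6 were measured and 0 called. The fibroblast markers overlap the collagen list and moved with it; their part in the matrix result was not tested.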

How the data were processed

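Per the labels' protocols, Cy3-labelled cRNA from 100 ng of RNA was hybridised to 1-colour Agilent arrays. Per the file headers, the authors' deposited files hold the processed spot intensity from Agilent Feature Extraction 11.0.1.1, background-subtracted and not normalized between arrays. The deposited series-wide values are log2 values centred per probe by the authors, with array scaling not given in the sources used here; they served as an alternative. Here the log2 processed intensity was set relative to each array's 75th percentile, taken without control spots. Outlier spots were left out and spots of a probe averaged. Tested probes had a signal well above background on 3 or 4 of the 4 arrays of some group, and each gene name was represented by its brightest probe. Accessions named 32994 of 56605 probes through RefSeq gene names (GRCm38.p6); of 32492 gene names tested, 17868 had a symbol. The 9 group means of all 36 arrays were fitted with limma 3.58.1 in R 4.3.3 with the package data.table (version 1.17.8), leaving 27 residual degrees of freedom, after a check on simulated data; figures used Python 3.11.15, pandas 2.3.3 and matplotlib 3.10.9. Calls have a Benjamini-Hochberg adjusted p under 0.05.

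The members and gene lists were chosen with earlier results of these data known, so lists are described by counts and medians with no test. Named genes were the 12 largest differences in each direction among symbols called, not overlapping and called with the slide as a block and with median scaling, up to 4 called members with the largest difference per list (where none was called, up to 2 as values), a chosen set of genes given whatever their result, and genes called in opposite directions against water. This gave 162 genes, some of them not reported here, of which 157 were called; of the 57 with several tested probes, 3 had a probe of the other sign and 0 a called one. Alternatives covered the arrays fitted, scaling, background, filter, probe choice, outlier spots, array weights, slide, scan day, a replicate block and leaving out each replicate. With 4 arrays per group, their number limits precision.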

Additional observations from a re-analysis of the deposited data

Results flagged for a closer look

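Of 324 sets of 4 arrays looked at, NM-203 and DE for each of 162 named genes, 13 had 1 array far from the other 3 of its group by Dixon's test; chance gives about 1 in 20. NM-203 replicate 4 was the array in 6 of the 13 and DE replicate 3 in 3, and their causes were not tested.

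On NM-203 replicate 4 the ribosome biogenesis genes Nop56, at 4.08 against 4.61 to 4.61 on the other 3 arrays, and Rrp12, at 1.87 against 3.12 to 3.15, were low. Hbegf was low there too, at -2.24 against -1.39 to -1.28. The same array was high for Mmp9 (-0.57 against -1.54 to -1.38), Ncam1 (2.19 against 1.82 to 1.87) and Tm7sf2 (-0.83 against -1.53 to -1.47). In all 6 genes it lay on the side of the DE group.

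DE replicate 3 was low for Fgf21, at -7.32 against -5.18 to -5.08, and for Gdf15, at -3.79 against -3.51 to -3.46, and high for Tgfb1, at 0.28 against -0.76 to -0.66. Junb was high on DE replicate 1, at 2.67 against 2.51 to 2.51, and Itgam low on NM-203 replicate 2, at 3.29 against 3.86 to 3.95. Cdh5, whose signal was near background on all 4 NM-203 arrays, was high on NM-203 replicate 1 (-5.91 against -7.52 to -7.38) and on DE replicate 2 (-3.50 against -4.65 to -4.45).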

How the results depend on the processing

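Of the 162 named genes, 0 with a call changed direction under the alternatives tried. Against 9494 gene names called, the total was 7158 to 9941 under the alternatives that kept all 4 arrays per group and used no replicate block or single slide, and 8360 to 9444 on leaving out each replicate; these are totals, not counts of shared genes. List medians near 0 took the other sign under at least 1 alternative for the CDK inhibitor, NF-kB, inflammasome, MHC class I, contractile, glycolysis, metallothionein, adipocyte and epithelial lists. No label says whether replicate numbers pair the samples, and they were not used as pairs. Deviations of same-numbered arrays correlated at -0.21, 0.10, -0.14 and 0.18, which cannot settle it with 4 arrays per group. With a replicate block 9392 were called over all 36 arrays. Over the 8 arrays alone the block left 4413 called (2163 higher, 2250 lower). There the interferon list had 14 higher and the lysosome list 9 lower. Within slide 1, 3728 were called (1862 higher, 1866 lower), with a replication median of 1.39, 4 proliferin and acute phase genes higher and 4 lysosome genes lower. Within slide 3, 5704 were called (2569 lower), with 15 interferon genes higher and 8 lysosome genes lower. These fits compare 3 arrays each, with the spread taken from all 36, so the lone array of a group is assumed to vary like the others. Scaling on the median left 2815 called lower and 10 lysosome genes lower. Normexp with quantile normalization left 1133 differences of at least 2-fold, beside 2693, and a replication median of 1.36. Of the 162 named genes, 31 lost the call within slide 1, 18 within slide 3, 20 with the replicate block over 8 arrays, 10 with scaling on the median, and 1 to 4 on leaving out a replicate: Psmb9, Itgam, Ctsk, Cnn1, Car9 or Cdkn1a. Tested probes of a gene also set the size for Il1rl1 (0.94 to 1.82), Rsad2 (1.69 to 2.58), Heatr1 (1.63 to 2.69), Mylk (-2.40 to -1.43), Mrc2 (-1.56 to -0.46) and Timp4 (-2.94 to -2.10). Where probes lay near background (Il1rn, Fgf21, Ctsk, Ccne2), signal over background limits the size of a difference.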
